A study of Mus musculus domesticus with 12 samples.

Results

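The genes described here are the clustered histone genes of the mouse, chosen as all genes whose GENCODE M21 symbol begins with Hist1h, Hist2h, Hist3h or Hist4h. There are 70 of them among 55385 genes in the tables: 6 for the linker histone H1, 20 for H2A, 19 for H2B, 12 for H3 and 13 for H4. They were measured in erythroid cells in which an exosome nuclease had been knocked down. Cells of E14.5 C57BL/6J fetal livers, depleted of mature lineages, were infected with a retrovirus that carried a short hairpin RNA (shRNA) against Dis3 (shDis3), against Exosc10 (shExosc10) or against Luc (shLuc, the control). All groups were cultured for 2 days in erythroid expansion medium, and GFP-positive cells without Ter119 and with intermediate or higher CD71, labelled as erythroid progenitors and proerythroblasts, were sorted. Each group had 4 libraries of total RNA with 14936178 to 32397192 counts. Each target is labelled with a single shRNA name, and knockdown rather than deletion leaves part of the RNA. Whether replicate libraries derive from different embryos or cultures is not given in the sources used here. The p-values therefore measure only the spread between these libraries, which may be technical.

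The core histones H2A, H2B, H3 and H4 form the spool around which DNA is wound, and H1 binds the DNA between spools. Most of this protein is made in S phase from the clustered genes, whose mRNAs carry no poly(A) tail. They end instead just after a short RNA hairpin, the stem-loop, which is bound by the stem-loop binding protein SLBP; the U7 small nuclear RNP directs the cut, and the same hairpin governs decay of the mRNA when DNA synthesis stops. The RNA exosome is a complex that trims and degrades RNA from the 3′ end, and Dis3 and Exosc10 are catalytic subunits of it. Erythroid precursors divide rapidly before they mature, and libraries of total RNA keep transcripts without poly(A). In bulk samples, fewer cells in S phase and less histone mRNA per cell cannot be told apart.

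The stem-loop is what these genes share beyond their name, so its sequence was read from the GENCODE M21 transcripts (GRCm38). The search covered the 100 bases after the stop codon, on the transcript's own strand, for 6-base arms that pair (G with U allowed), the left arm beginning GG and the right arm ending CC, around a 4-base loop with T at positions 1 and 3. It was found in 46 of the 52 members whose annotated transcript runs at least 16 bases past the stop codon. Of genes with a full 100-base window, 26 of 31 members and 14 of 19890 other genes (0.0704%) held one. The other genes included H2afx, which encodes a histone variant outside the clusters, and H2bfm. The hairpin began 22 to 59 bases after the stop codon (median 32). The following examples, 1 or more per histone type, show how the arms differ; capitals mark the paired arms, lower case the loop and the flanking bases, and all are written as DNA of the transcript strand.
Hist1h1c: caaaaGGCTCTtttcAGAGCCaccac
Hist2h2aa1: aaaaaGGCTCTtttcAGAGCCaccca
Hist1h2bb: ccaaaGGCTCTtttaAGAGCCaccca
Hist2h3c2: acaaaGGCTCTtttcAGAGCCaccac
Hist1h3g: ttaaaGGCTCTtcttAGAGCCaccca
Hist1h4h: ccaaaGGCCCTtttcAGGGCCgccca
Hist1h4b: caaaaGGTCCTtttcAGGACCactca
Hist1h4i: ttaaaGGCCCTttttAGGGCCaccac
Hist1h4a: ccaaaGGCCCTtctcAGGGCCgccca

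These sites lie at chr13:23739507-23739532 (plus strand) for Hist1h1c, chr3:96246027-96246052 (plus) for Hist2h2aa1, chr13:23747198-23747223 (plus) for Hist1h2bb, chr3:96238480-96238505 (minus) for Hist2h3c2 and chr13:23535884-23535909 (plus) for Hist1h3g. The H4 sites lie at chr13:23531453-23531478 (plus) for Hist1h4h, chr13:23757361-23757386 (plus) for Hist1h4b, chr13:22040961-22040986 (minus) for Hist1h4i and chr13:23760795-23760820 (minus) for Hist1h4a. There were 8 distinct hairpins in all. The form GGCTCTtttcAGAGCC was shared by 26 members of H1, H2A, H2B and H3, and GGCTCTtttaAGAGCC by 6 members of H1, H2B and H3. Each of the H4 hairpins found had a different left arm, GGCCCT or GGTCCT, led by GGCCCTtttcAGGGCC in 7 genes. Of the 6 members with enough sequence and no match, Hist1h1a and Hist2h3b ran only 48 and 37 bases past the stop codon, while Hist1h2bc, Hist1h2bq, Hist1h2br and Hist2h2be ran 742 to 2192 bases. No match says only that these letters are not in the window of the annotated model.

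The annotated models matter for the levels. In 11 members the model is the coding sequence alone, while in 18 it goes on for more than 200 bases past the stem-loop. Hist1h4k is annotated with 312 bases, of which RSEM counted on average 87.2 as effective length, since the mean fragment was 225.6 to 244.8 bases over the libraries. Hist1h1d, by contrast, has a model of 7425 bases. TPM divides by effective length, so for equal counts a short model is given a higher TPM. The order of members was also taken, as a choice made after seeing the data, by CPM (counts scaled to library size with TMM factors) per kilobase of annotated length. Hist1h4k ranked 5 of all members by TPM and 17 by this measure. Coding-only models did not all move: Hist2h2bb was first in H2B by both, and Hist1h2aa was near 0 TPM.

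Clustered histone RNA was abundant in every library. Together the 70 genes took 5.38, 6.20, 5.56 and 7.04% of all TPM in shDis3 replicates 1 to 4, 6.18, 6.59, 6.49 and 5.86% in shExosc10, and 4.87, 5.48, 7.15 and 5.14% in shLuc. By counts, which are not corrected for the small size of these genes, they took 1.56 to 3.77% of a library. On average 23 members exceeded 1000 TPM, 33 lay between 100 and 1000, 7 between 2 and 100, and 7 were under 2 TPM. The 55 genes of the Hist1 cluster on chromosome 13 (21715763 to 23934851), with the pseudogene Hist1h2al farther along that chromosome, supplied 80.6% of the histone TPM, and the 10 Hist2 genes on chromosome 3 (96219865 to 96270132) supplied 19.1%. The 3 Hist3 genes on chromosome 11 gave 0.220% and Hist4h4 on chromosome 6 gave 0.108%.

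**Figure D1:**
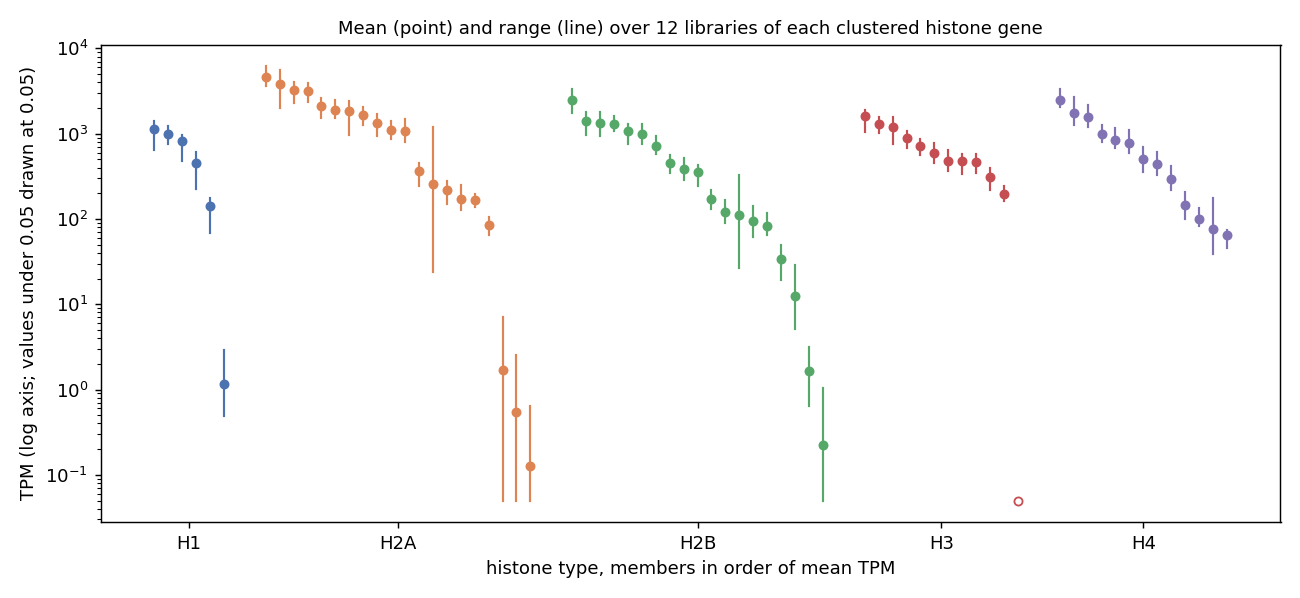
Mean TPM (points) and range over the 12 libraries (lines) of each of the 70 clustered histone genes, grouped by histone type and ordered by mean; the vertical axis is logarithmic and values under 0.05 are drawn at 0.05 (open point: listed at 0 throughout). Most members lie between 100 and the 6145 TPM of the highest library of Hist1h2ai, and the longest lines belong to Hist2h2aa2 and to members under 2 TPM on average, such as Hist1h2aj, Hist1h2al and Hist1h2ba, which are at 0 in some libraries.

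Among the linker histones, the replicative subtypes led and the testis subtype was near 0. Hist1h1b averaged 1122 TPM over the 12 libraries, Hist1h1a 993.0, Hist1h1c 811.2 and Hist1h1e 453.2. Hist1h1c, one of the somatic subtypes, measured 955.75, 934.22, 787.96 and 855.49 TPM in shDis3, 772.68, 906.99, 801.68 and 776.69 TPM in shExosc10, and 483.13, 816.76, 923.86 and 719.05 TPM in shLuc. The 3 groups overlapped, and shLuc replicate 1 was the lowest of all. Hist1h1e repeated this, with 601.49, 485.85, 585.80 and 334.48 TPM in shDis3, 376.90, 410.02, 374.73 and 405.40 TPM in shExosc10, and 221.92, 540.76, 525.82 and 575.08 TPM in shLuc. Its log2 fold change was -0.25 (SE 0.20) in shExosc10 over shLuc, which edgeR's quasi-likelihood test did not call (unadjusted p = 0.231). The testis linker histone Hist1h1t measured 0.49 to 2.90 TPM in shDis3, 0.89 to 1.54 TPM in shExosc10 and 0.77 to 1.16 TPM in shLuc.

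H2A was the largest type, with 45.5 to 46.2% of the histone TPM in shDis3, 43.8 to 48.6% in shExosc10 and 42.4 to 46.7% in shLuc. Its leading member Hist1h2ai, annotated as 393 coding bases, measured 3998.95, 4985.30, 4083.85 and 5348.52 TPM in shDis3, 4604.18, 6144.52, 4685.48 and 4406.48 TPM in shExosc10, and 3802.86, 4394.26, 5224.04 and 3654.03 TPM in shLuc. It was followed by Hist2h2aa1, Hist1h2ap and Hist1h2ak at means of 3833, 3246 and 3129 TPM, and per kilobase of annotated length Hist2h2aa1 came first. The spread of these 4 over the libraries, from 2005 to 6145 TPM, was wider than the gaps between neighbours in the order. The testis variant Hist1h2aa was listed above 0 in 3 of the 12 libraries, at 0.30 to 0.64 TPM.

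H2B was led by Hist2h2bb at 2448 TPM, then Hist1h2bq, Hist1h2bb and Hist1h2bn between 1312 and 1400 TPM, which do not differ beyond their spread. Hist2h2bb measured 1750.69, 2270.53, 2084.92 and 3340.78 TPM in shDis3, 3073.95, 2334.12, 3159.84 and 2464.97 TPM in shExosc10, and 2296.87, 2228.14, 2347.36 and 2025.08 TPM in shLuc. The libraries of shDis3 spanned those of shLuc on both sides. The testis H2B variant Hist1h2ba measured 0.00 TPM in every shDis3 library, at most 0.62 TPM in shExosc10 and at most 1.05 TPM in shLuc.

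H3 was led by Hist2h3b, Hist1h3b and Hist2h3c2, at means of 1588, 1311 and 1206 TPM, with Hist1h3i at 891.0. Per kilobase of annotated length Hist2h3c2, whose model is 1020 bases long, came first. Hist2h3c2 measured 1175.16, 1298.49, 1213.67 and 1508.12 TPM in shDis3, 1149.05, 1081.57, 1319.24 and 1168.55 TPM in shExosc10, and 748.02, 1007.99, 1556.58 and 1245.18 TPM in shLuc. The lowest and the highest value both stood in shLuc. Hist2h3c1 was listed at 0 in all 12 libraries. Its stem-loop and flanking bases are the same letters as those of Hist2h3c2, and how reads were divided between these 2 genes was not tested.

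H4 was led by Hist1h4k at 2489 TPM, with Hist1h4m at 1758, Hist1h4h at 1552 and Hist1h4b at 985.9. Per kilobase of annotated length the order of the first 3 was Hist1h4h, Hist1h4m, Hist1h4k. Hist1h4h measured 1198.43, 1586.83, 1291.50 and 1605.62 TPM in shDis3, 1422.85, 1839.29, 1588.27 and 1583.37 TPM in shExosc10, and 1479.12, 1445.91, 2178.77 and 1407.76 TPM in shLuc. On this scale shLuc replicate 3 stood above all others. All members of H4 encode nearly the same protein, and their coding sequences were 85.3 to 100% identical over 78 pairs, with a median of 93.9%.

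Libraries did not group by shRNA. By log2 CPM over all genes tested, 8 of the 12 libraries had their closest library in another group, and the tightest pairs were shDis3 replicate 3 with shLuc replicate 4 (r = 0.986) and shDis3 replicate 4 with shExosc10 replicate 1 (r = 0.981). Olfactory receptor genes were summed as a marker of genomic DNA, not of cell type. These 4 libraries also had the lowest summed CPM of these genes, 6.85 to 16.7, against 32.1 to 593 in the other 8. The highest sum was that of shDis3 replicate 2, and the part of genomic DNA in the libraries was not tested. Summed levels and fitted results are given with all libraries and without these 4. Dis3 measured 24.7 to 52.4 CPM in shDis3, against 113 to 160 CPM in shLuc, and Exosc10 measured 18.9 to 30.8 CPM in shExosc10, against 85.4 to 113 CPM in shLuc. In shDis3 over shLuc edgeR did not call Dis3 itself (log2 fold change -1.78, adjusted p = 0.0581 by edgeR). It called Exosc10 in shExosc10 over shLuc (-1.89, adjusted p = 0.00502 by edgeR).

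The summed histone level differed more between libraries of a group than between groups. The summed TPM averaged 60470 ± 7492 in shDis3, 62796 ± 3310 in shExosc10 and 56589 ± 10267 in shLuc (SD, n = 4 each), a ratio of 1.07 for shDis3 over shLuc, 1.11 for shExosc10 over shLuc and 0.963 for shDis3 over shExosc10. The summed CPM averaged 23720 ± 8038 in shDis3, 25998 ± 2017 in shExosc10 and 25875 ± 10584 in shLuc, with ratios of 0.917, 1.005 and 0.912. Sums on both scales overlapped between all groups. Without the 4 libraries the TPM ratios were 0.994, 1.08 and 0.918 and the CPM ratios 0.763, 0.860 and 0.887 in the same order, so with all libraries shDis3 over shLuc turned with the scale, and without the 4 it was below 1 on both. The CPM ratio of shExosc10 over shLuc also moved below 1. The widest gap lay inside the control: by summed CPM, shLuc replicate 3 held 38158 and replicate 4 held 14771, the highest and the lowest of all 12 libraries (2.58 times). Transcripts of models under 300 bases outside these genes took 13.4 and 13.2% of the TPM in shLuc replicates 1 and 3, the shLuc libraries with the most histone CPM, against 3.56 to 10.5% in the other 10. Since TPM is a share of the whole, the part of these small transcripts in the histone TPM was not tested.

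**Figure D2:**
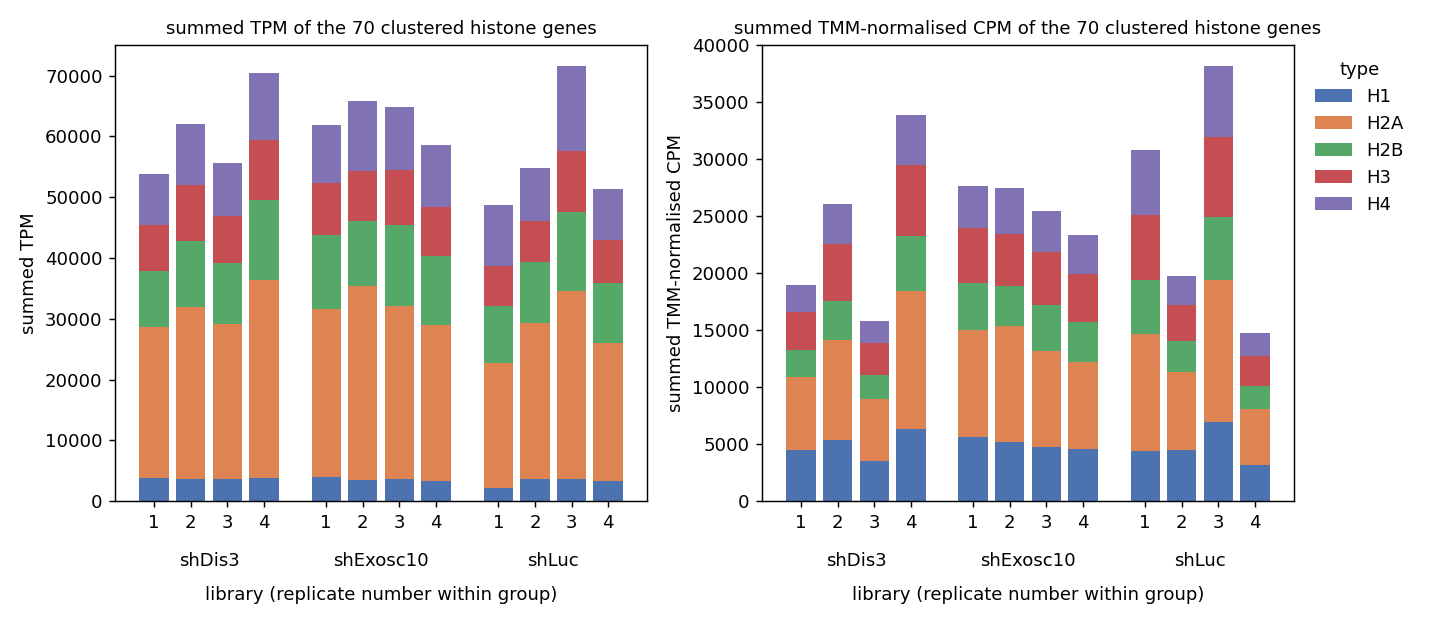
Summed TPM (left) and summed TMM-normalised CPM (right) of the clustered histone genes in each library, stacked by histone type, with shDis3 on the left, then shExosc10 and shLuc. The CPM sums reach from 14771 in shLuc replicate 4 to 38158 in shLuc replicate 3, and the groups overlap on both scales.

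Over the 12 libraries the shares of H2A, H2B, H3 and H4 in the histone TPM varied less than the summed TPM. Their coefficients of variation (SD over mean) were 3.86, 6.35, 5.34 and 9.79%, against 12.3% for the sum. A share divides out whatever changes all types together, so this comparison cannot show that the composition was stable. The H1 share varied about as much as the sum, at 12.7%. The H4 share was highest in control replicates 1 and 3. H4 took 15.5 to 16.03% of the histone TPM in shDis3, 15.4 to 17.6% in shExosc10, and 20.4, 15.8, 19.4 and 16.4% in shLuc replicates 1 to 4. H1 took 5.48 to 7.04% in shDis3, 5.20 to 6.40% in shExosc10, and 4.45, 6.67, 5.20 and 6.41% in shLuc. Control replicate 1 was thus the lowest library for H1 and the highest for H4. Summed H1 was 3756 ± 85.8 TPM in shDis3 and 3604 ± 263 TPM in shExosc10, against 3208 ± 717 TPM in shLuc (SD, n = 4 each), where replicate 1 alone held 2168. Without the 4 libraries the H1 ratio of shDis3 over shLuc was 1.18 in TPM and 0.937 in CPM, against 1.17 and 1.03 with all, and the H4 ratio was 0.844 and 0.618, against 0.925 and 0.748 with all.

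Of the 70 genes, 66 had enough counts for the test; Hist1h2ba, Hist1h2aa, Hist1h2al and Hist2h3c1 did not. In edgeR's quasi-likelihood test with Benjamini-Hochberg adjustment over 17650 genes, 0 of the 66 members were called in shDis3 over shLuc, where 0% of all genes were called. In shExosc10 over shLuc the test called 0 members (0.00567% of all genes), and in shDis3 over shExosc10 it called 0 members (0.0113% of all genes). At an unadjusted p under 0.05 there were 1, 2 and 1 members in the same order, against 4.07, 2.10 and 5.98% of all genes tested. DESeq2 called 0 members in each comparison, where it called 0.187, 0.0453 and 0.448% of all genes, and limma on log2(TPM + 1) called 0 members and 0 genes. Every shDis3 library was above every shLuc library in CPM for 1 member, Hist1h2aj (0.907% of all genes), and below for 0 (0.793%). Hist1h2aj had 0 counts in every shLuc library and so entered the test only through knockdown libraries, in which it is high. Its place here and among the low unadjusted p-values against shLuc is therefore not evidence of a difference. Every shExosc10 library was above every shLuc library for 1 member, Hist2h2be (1.02% of all genes), and below for 0 (1.46%). Between shDis3 and shExosc10 there were 0 such members higher (1.91% of all genes) and 0 lower (1.8%). These counts do not show that the genes were alike.

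In shDis3 over shLuc the fitted log2 fold changes leaned below 0, with a median of -0.17 over the 66 members against 0.02 over all genes tested, and 56 of 66 were negative, against 47.4% of all genes. The lean was deepest in H4 (-0.41, 12 of 13 negative), then H2B (-0.21), H2A (-0.16) and H3 (-0.08), while H1 had a median of 0.04. Summed H4 CPM was highest in shLuc replicates 1 and 3, at 5706 and 6176, against 2539 and 2017 in shLuc replicates 2 and 4. Since members share reads, libraries and one cell cycle, they are not independent, and no test was made of a median. On log2(TPM + 1) the median of all members was 0.11 and so turned sign, with all genes at 0.11; H4 stayed below 0 at -0.10. Without shLuc replicate 3 alone the median of all members was 0.09, and without shLuc replicate 4 it was -0.39. Hist1h4h, which passed no threshold, averaged 394 ± 145 CPM in shDis3 and 551 ± 266 CPM in shLuc (SD, n = 4 each), a log2 fold change of -0.48 (SE 0.33).

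Without the 4 libraries of the tightest pairs across groups, 28 of 66 members had an unadjusted p under 0.05 in shDis3 over shLuc, against 12.1% of all genes tested in that fit, and the median of the members was -0.49. These included 11 of 13 H4 and 12 of 18 H2B genes, but 0 of 6 H1 and 0 of 11 H3 genes. After adjustment 2 members were called, both higher in shDis3, against 3.34% of all genes. They were Hist2h2be (log2 fold change 1.21, SE 0.32, adjusted p = 0.0334 by edgeR) and Hist1h4i (0.90, SE 0.25, adjusted p = 0.0476 by edgeR). That fit rests on 2 shDis3, 3 shExosc10 and 3 shLuc libraries, and 2 of these shLuc libraries are replicates 1 and 3 with the high histone CPM. With the library cluster as a factor in place of removal, 0 members were called (0.181% of all genes), 4 had an unadjusted p under 0.05 (10.1% of all genes) and the median was -0.22.

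**Figure D3:**
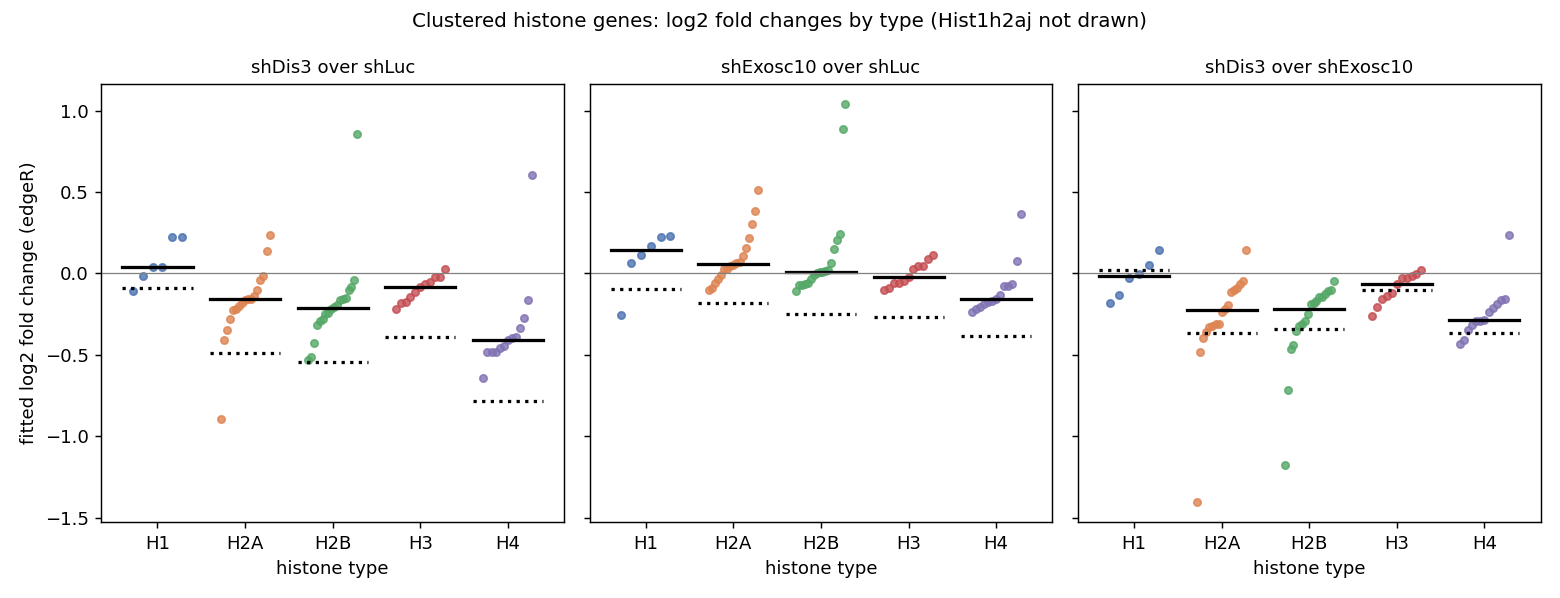
Fitted log2 fold change (edgeR, CPM scale) of each tested clustered histone gene by type for the 3 comparisons; solid bars are the medians with all 12 libraries and dotted bars the medians without the 4 libraries of the tightest pairs across groups. In shDis3 over shLuc the H4 median is -0.41 with all libraries and -0.78 without the 4; Hist1h2aj, absent from shLuc, is left off the plot but enters the medians.

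In shExosc10 over shLuc the members lay around 0, with a median of 0.01 against 0.02 over all genes and 30 of 66 negative, against 47.8% of all genes. By type the medians were 0.14 for H1, 0.06 for H2A, 0.01 for H2B, -0.02 for H3 and -0.16 for H4. On log2(TPM + 1) the median was 0.17, without shLuc replicate 3 it was 0.27, and without the 4 libraries it was -0.25. That smaller fit called 1 member (0.0323% of all genes), Hist2h2aa2, and gave 4 members an unadjusted p under 0.05 (3.72% of all genes). With the library cluster as a factor, 0 members were called (0.0227% of all genes), 4 had an unadjusted p under 0.05 (4.27%) and the median was -0.22. In shDis3 over shExosc10 the median was -0.18 against 0.01 over all genes, with 60 of 66 negative, against 48.8% of all genes, and H1 and H3 nearest 0 (-0.02 and -0.07). The H4, H2A and H2B medians were -0.28, -0.23 and -0.22. This median of all members stayed below 0 in the 21 alternatives, between -0.44 and -0.02. Without the 4 libraries 1 member was called (2.15% of all genes), again Hist2h2aa2, and 6 had an unadjusted p under 0.05 (10.5%); with the library cluster as a factor 0 were called (0.136%) and 1 had an unadjusted p under 0.05 (10.3%). Without a filter on low counts, the members called were 0 in shDis3 over shLuc (0.297% of all genes), 0 in shExosc10 over shLuc (0.0242%) and 1 in shDis3 over shExosc10 (0.433%), Hist2h2aa2 at -1.44 (SE 0.31, adjusted p = 0.00405 by edgeR). The shDis3 and shExosc10 comparisons against shLuc share the shLuc libraries.

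The members with the lowest unadjusted p were mostly those of low level. Hist2h2be (ENSMUSG00000068854.7, chr3:96221119-96223738, plus strand), an H2B gene known in the mouse for its role in olfactory neurons, measured 7.67, 8.72, 1.94 and 3.15 CPM in shDis3, 4.96, 6.43, 6.87 and 6.02 CPM in shExosc10, and 3.06, 4.84, 2.46 and 1.41 CPM in shLuc. Every shExosc10 library was above every shLuc library in CPM, while shDis3 was split into 2 high and 2 low libraries. By TPM the groups overlapped, with shExosc10 replicate 1 at 1.56 and shLuc replicate 2 at 1.82. The lowest values of each group were those of the 4 libraries of the tightest pairs across groups. Its log2 fold change was 1.04 (SE 0.45, unadjusted p = 0.037) in shExosc10 over shLuc and 0.86 (SE 0.45, unadjusted p = 0.079) in shDis3 over shLuc; edgeR's adjustment over all genes left neither under its threshold. Both stayed positive in all 21 alternatives.

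Hist3h2ba (ENSMUSG00000056895.4), the H2B gene of the small Hist3 cluster, measured 4.29, 7.23, 1.68 and 3.15 CPM in shDis3, 4.70, 12.1, 13.3 and 6.46 CPM in shExosc10, and 4.75, 4.39, 8.30 and 2.41 CPM in shLuc. The 2 highest libraries were shExosc10 replicates 2 and 3. Its log2 fold change was -1.18 (SE 0.47, adjusted p = 0.769 by edgeR) in shDis3 over shExosc10 and 0.89 (SE 0.47, unadjusted p = 0.0778 by edgeR) in shExosc10 over shLuc. Its neighbour, the pseudogene Hist3h2bb-ps, measured 5.90, 9.98, 5.58 and 8.22 CPM in shDis3, 11.1, 14.97, 13.7 and 8.95 CPM in shExosc10, and 13.1, 10.2, 15.2 and 3.75 CPM in shLuc. Its log2 fold change in shDis3 over shExosc10 was -0.72 (SE 0.35, adjusted p = 0.824 by edgeR), and shExosc10 replicate 4 lay inside the shDis3 range.

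Hist1h2bf, a core H2B gene, measured 66.1, 95.7, 68.7 and 119 CPM in shDis3, 115, 123, 127 and 117 CPM in shExosc10, and 147, 102, 192 and 64.4 CPM in shLuc. The 4 shExosc10 libraries were close to each other, whereas shLuc held both the highest and the lowest library. Its log2 fold change was -0.53 (SE 0.28, unadjusted p = 0.0837 by edgeR) in shDis3 over shLuc and -0.46 (SE 0.28, adjusted p = 0.860 by edgeR) in shDis3 over shExosc10, negative in all 21 alternatives of both. Hist1h4i, named here because it was called in the smaller fit, measured 65.1, 108, 16.4 and 40.3 CPM in shDis3, 38.2, 52.9, 48.0 and 55.7 CPM in shExosc10, and 59.0, 31.5, 44.3 and 16.6 CPM in shLuc. Its shDis3 replicates 1 and 2 were the highest of all 12 libraries, and shDis3 replicate 3 was the lowest.

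**Figure D4:**
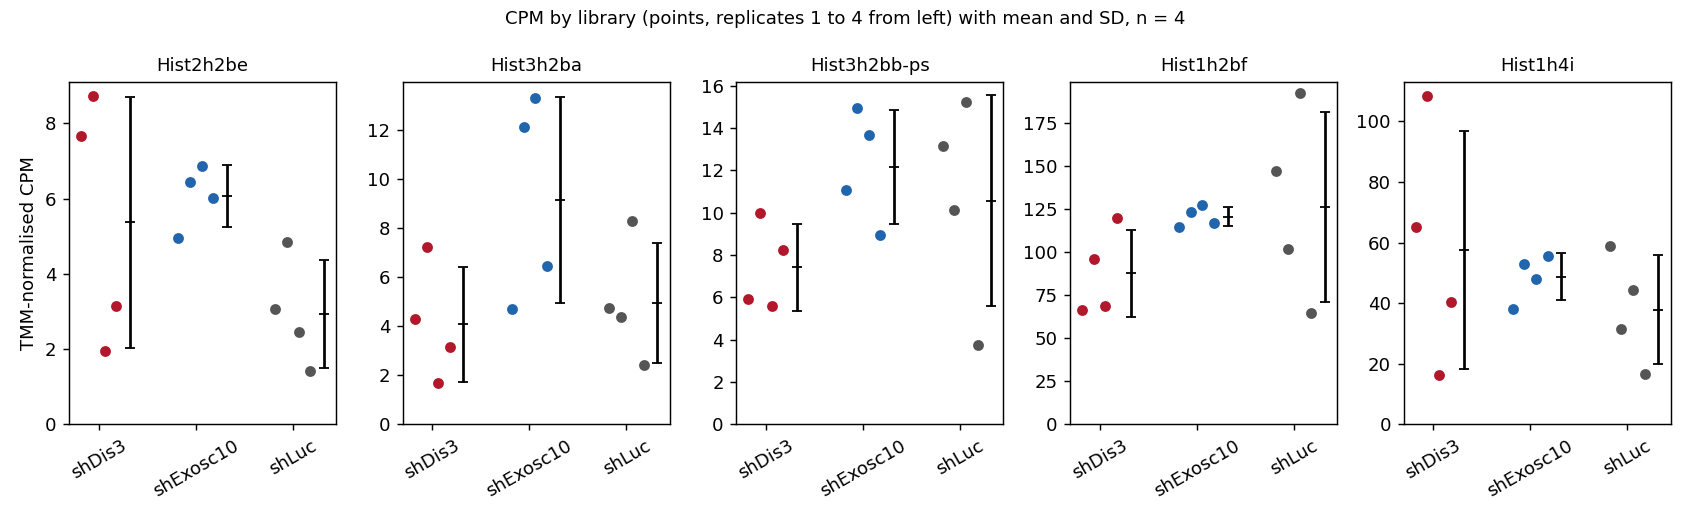
TMM-normalised CPM of 5 clustered histone genes in each library (points, replicates 1 to 4 from left within a group) with the group mean and SD (n = 4). Every shExosc10 library is above every shLuc library in CPM for Hist2h2be, and the groups overlap for Hist3h2ba, Hist3h2bb-ps, Hist1h2bf and Hist1h4i in every pair of groups.

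The pseudogene Hist1h2aj was listed with expected counts of 2.83, 8.20, 13.61 and 19.98 in shDis3, 0, 27.99, 5.68 and 0 in shExosc10, and 0 in each shLuc library. Against 3 counts over the whole shLuc group, its pooled CPM was 14.3-fold higher in shDis3 and 11.2-fold higher in shExosc10. edgeR called neither (unadjusted p = 0.0113 and 0.0144). The gene passed the filter only through knockdown libraries, so neither these p-values nor these folds are evidence of a difference. The folds allow for counting error in shLuc only and take the knockdown counts as they stand. The shExosc10 fold rests on replicate 2, without which 5.68 counts remained and the fold was 2.61. Leaving out any 1 shDis3 library gave folds of 10.7 to 17.9. These counts are mostly not whole, since RSEM divided reads between this pseudogene and other genes, so its level is uncertain.

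Most members had reads divided with other genes. Of the members' expected counts above 0, 81.1% were more than 0.005 from a whole number, against 10.0005% of those above 0 over all genes, and 41 members had no whole count in any of the 12 libraries. The longest coding sequence of each gene was compared with those of equal length in its type. They were identical in 4 pairs: Hist2h2aa1 with Hist2h2aa2, Hist1h2bq with Hist1h2br (405 bases), Hist1h2ao with Hist1h2ap, and Hist1h4m with Hist1h4n. Hist2h3c1 entered with 546 bases, so it was not compared with Hist2h3c2. Hist2h2aa2 measured 218.96, 175.21, 118.50 and 104.39 TPM in shDis3, 1203.33, 45.43, 23.94 and 91.54 TPM in shExosc10, and 115.00, 195.24, 230.72 and 553.74 TPM in shLuc. It ranged 50.3 times over the libraries, but its sum with Hist2h2aa1 only 2.69 times, and it held 0.617 to 27.997% of that sum. The fold change of Hist2h2aa2 in shDis3 over shExosc10 was -1.40 on the log2 scale with all libraries (SE 0.91, adjusted p = 0.880 by edgeR) and 1.73 without the 4 libraries (SE 0.34, adjusted p = 0.00583 by edgeR). In shExosc10 over shLuc it was 0.51 with all libraries (SE 0.89) and -2.07 without the 4 (SE 0.32, adjusted p = 0.00675 by edgeR). The 1203.33 TPM of shExosc10 replicate 1 and the 553.74 TPM of shLuc replicate 4 are the values of libraries left out there. The stem-loops of this pair, with 5 bases on either side, are the same letters.

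In TPM, which also depends on the length assigned in each library, Hist1h2br ranged from 26.6 in shLuc replicate 1 to 327 in shLuc replicate 2, and its sum with Hist1h2bq ranged 1.64 times. By CPM the contrast was small: Hist1h2br ranged 2.51 times and the pair sum 2.24 times. In the other identical pairs the second member varied about as much as the sum, with Hist1h2ap ranging 1.73 times in TPM and its sum with Hist1h2ao 1.62 times, and Hist1h4n ranging 1.87 times and its sum with Hist1h4m 2.00 times. The TPM sum of Hist1h2bq and Hist1h2br averaged 1545 ± 162 TPM in shDis3, 1557 ± 156 TPM in shExosc10 and 1434 ± 302 TPM in shLuc (SD, n = 4 each). Of the 5 members with more than 1 transcript in the tables, Hist2h3c1 was at 0 and Hist1h2br varied most in length. Its abundance-weighted length was 1071.60, 1224.85, 554.61 and 952.30 bases in shDis3, 885.22, 504.31, 1163.59 and 1232.36 bases in shExosc10, and 1240.83, 471.62, 1228.23 and 518.13 bases in shLuc. Its transcripts are 381, 1256 and 2197 bases long, the shortest being coding sequence alone. The identity with Hist1h2bq was read over the 405 coding bases of a longer transcript, and the 381-base sequences were not compared. The 4 libraries with the shortest lengths, shDis3 replicate 3, shExosc10 replicate 2 and shLuc replicates 2 and 4, were also the 4 with the highest TPM of Hist1h2br, and no group stood apart. Hist1h2bp was 511 to 547 bases over the libraries, Hist1h2be 2473 to 2484, and Hist1h2bq 381.3 to 382.5. Members whose models run more than 200 bases past the stem-loop had a median log2 fold change in shDis3 over shLuc of -0.18 (17 tested). Those ending within 200 bases of it had -0.21 (28 tested), and those with no stem-loop in the model had -0.10 (21 tested).

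**Figure D5:**
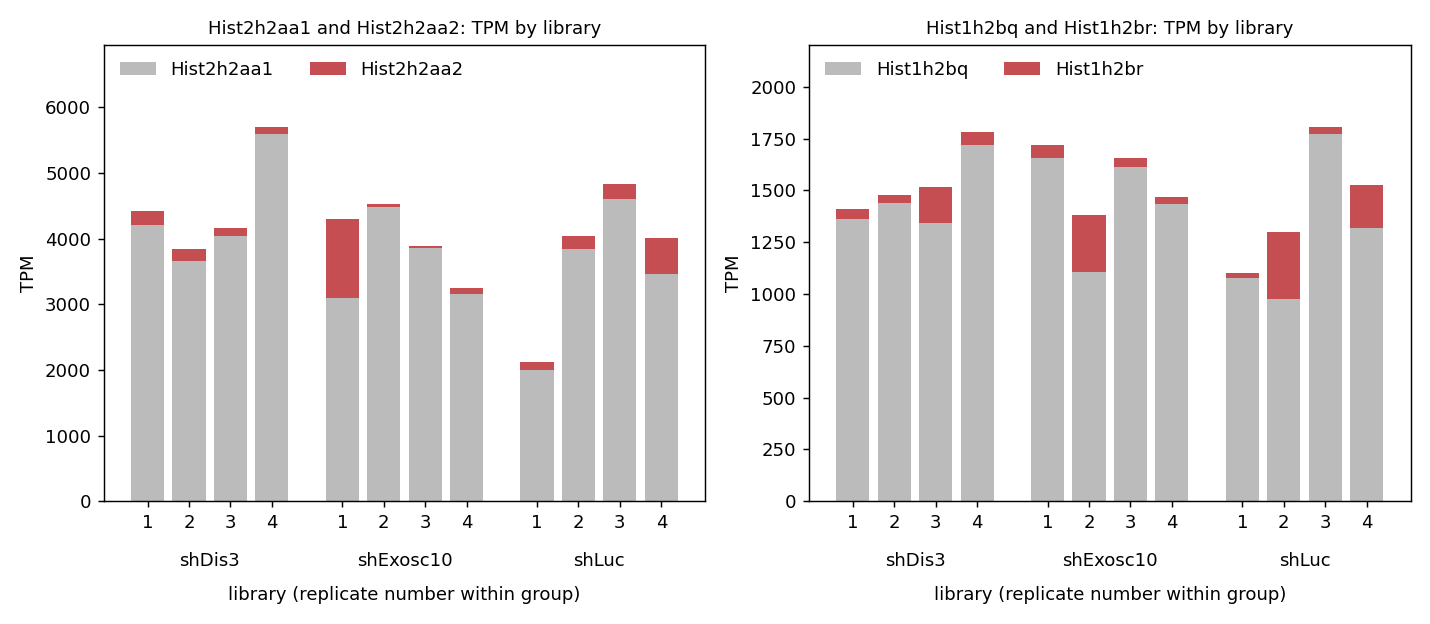
TPM in each library of 2 pairs of H2A and H2B genes whose longest coding sequences are identical, stacked, with shDis3 on the left, then shExosc10 and shLuc. As the highest over the lowest library, the upper (red) part ranges 50.3 times for Hist2h2aa2 and 12.3 times for Hist1h2br. The whole bar ranges 2.69 and 1.64 times. In TPM units the height of the whole bar changes more than the red part.

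By summed CPM, other histone and cell cycle genes varied less than the clustered histones, but by summed TPM they varied more. The summed CPM of 30 S phase genes ranged 1.61 times over the 12 libraries (3535 to 5676), that of 11 replication-independent histones 1.47 times (1780 to 2621) and that of 16 histone chaperones 1.66 times (4157 to 6911), against 2.58 times for the clustered histones. Summed TPM reached from 1201 to 2928 for the S phase genes and from 1125 to 2249 for the replication-independent histones. It reached from 2069 to 4189 for the chaperones, against 48680 to 71532 for the clustered histones. In edgeR's test 0 members of these lists were called in any comparison (at an unadjusted p under 0.05, 2, 0 and 1 of the S phase genes and 2, 0 and 0 of the replication-independent histones in shDis3 over shLuc, shExosc10 over shLuc and shDis3 over shExosc10; for the chaperones 0, 1 and 0; of all genes 4.07, 2.10 and 5.98%). The S phase genes had median log2 fold changes of -0.07, -0.04 and -0.08 in these comparisons, with 24, 16 and 18 of 30 negative, against 47.4, 47.8 and 48.8% of all genes. H2afx, the variant gene with a stem-loop of its own, measured 318, 329, 284 and 406 CPM in shDis3, 330, 340, 308 and 311 CPM in shExosc10, and 438, 295, 581 and 282 CPM in shLuc. Its 3 highest libraries, shLuc replicates 3 and 1 and shDis3 replicate 4, were also the 3 with the highest summed histone CPM. H3f3a, which encodes the replication-independent H3.3, measured 410, 388, 318 and 544 CPM in shDis3, 535, 410, 538 and 428 CPM in shExosc10, and 522, 451, 480 and 328 CPM in shLuc.

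Among 25 tested genes for histone transcription, 3′ processing and decay, 0 were called in any comparison, and 1, 2 and 0 had an unadjusted p under 0.05, against 4.07, 2.10 and 5.98% of all genes. Slbp, which encodes the stem-loop binding protein, measured 132, 115, 126 and 209 CPM in shDis3, 197, 133, 168 and 134 CPM in shExosc10, and 156, 150, 146 and 133 CPM in shLuc. The groups overlapped, with log2 fold changes of -0.00 (SE 0.21) in shDis3 over shLuc and 0.11 (SE 0.21) in shExosc10 over shLuc. The 4 erythroid markers with the highest mean TPM were Hba-a1 (687), Hbb-bt (274), Tfrc (159) and Klf1 (87.4). Those of granulocyte precursors were Mpo (699), S100a9 (420), S100a8 (359) and Elane (189). The summed CPM of 11 erythroid genes was 1486 to 2243 in shDis3, 1800 to 3121 in shExosc10 and 1402 to 2898 in shLuc. Markers of granulocyte precursors summed to 2079 to 4803 CPM in shDis3, 1294 to 2038 in shExosc10 and 1049 to 4221 in shLuc (8 of 8 genes tested). In shDis3 and shLuc the granulocyte range reached above the erythroid range, and in shExosc10 it did not. Megakaryocyte markers summed to 292 to 354 CPM in shDis3, 125 to 302 in shExosc10 and 73.9 to 397 in shLuc. Fold changes were positive in shDis3 over shLuc for 8 of 8 megakaryocyte genes (median log2 0.93), 6 of 8 granulocyte genes (0.47) and 7 of 7 stem and early progenitor genes (0.52). In shDis3 over shExosc10 they were positive for 8 of 8 megakaryocyte (0.94), 8 of 8 granulocyte (0.52), 7 of 7 stem and early progenitor (1.014), 5 of 5 tested mast cell and basophil (0.50) and 4 of 4 tested macrophage genes (0.66), beside 60 of 66 negative histone genes. Over shLuc, 3 of 4 tested macrophage and 3 of 5 tested mast cell and basophil genes were positive. Erythroid genes were positive for 5 of 11 (-0.03) over shLuc and 4 of 11 (-0.15) over shExosc10, and hepatocyte genes for 2 of 4 tested in each. Of all genes, 47.4 and 48.8% were negative in shDis3 over shLuc and over shExosc10. No gene of these lists was called by edgeR, and the part of these lists in the histone levels was not tested. Hepatocyte genes summed to 10.9 to 25.8 CPM in shDis3, 13.6 to 22.8 CPM in shExosc10 and 12.3 to 31.7 CPM in shLuc.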

How the data were processed

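Gene tables of 12 libraries (4 each of shDis3, shExosc10 and shLuc) were used. The authors deposited RSEM expected counts, TPM, and gene length and effective length in bases, made from total RNA (SMARTer Stranded Pico v2 kit, per the labels' protocols) with STAR 2.5.3a and RSEM 1.3.0 on GRCm38, per the submitters' processing notes; the annotation and strand setting were not stated in them. Gene identifiers were matched to GENCODE M21 without version (55144 of 55385). Expected counts, as the authors deposited them, were rounded and then compared by edgeR 4.0.16 in R 4.3.3 (TMM factors, filterByExpr, quasi-likelihood F-test, all 12 libraries, group only, Benjamini-Hochberg over 17650 genes, threshold 0.05). The standard error is the absolute log2 fold change over the square root of F. TPM, as deposited by the authors, was used for levels between genes. DESeq2 1.42.0 and limma 3.58.1 on log2(TPM + 1) or log2(TPM + 0.1) were alternatives, with others listed in the closing section. Scripts were tested on simulated data. Depth was 14936178 to 32397192 counts, and floors cover counting error only.

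Members and lists were chosen with earlier results of these data known. Named are the 4 highest members by mean TPM per histone type, the 3 lowest unadjusted p per comparison, testis variants and members with several transcripts; Hist1h4i, Hist2h2aa2, Hist1h2ao, Hist1h4n and Hist1h1d were added after their values were seen. Sequences are from the GENCODE M21 transcripts.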

Additional observations from a re-analysis of the deposited data

Results flagged for a closer look

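In 11 of 144 groups of 4 libraries, 1 library lay far from the other 3 by Dixon's ratio at its 95% critical value, and chance gives about 1 in 20. In shDis3, Hist2h3b was high in replicate 4 at 1897.16 TPM, against 1538.99 to 1575.62 TPM in the others. In shExosc10, replicate 2 was high for Hist1h2ai at 6144.52 TPM (others 4406.48 to 4685.48), for Hist1h4k at 3016.91 TPM (others 2270.53 to 2337.08), for Hist1h2br at 277.87 TPM (others 36.88 to 59.73) and for Hist1h2aa at 0.59 TPM (others at 0). In shExosc10 replicate 1, Hist2h2aa2 was high at 1203.33 TPM, against 23.94 to 91.54 TPM in the others. In shLuc, Hist1h1e was low in replicate 1 at 221.92 TPM (others 525.82 to 575.08), and Hist2h2be was high in replicate 2 at 1.82 TPM (others 0.64 to 0.69). In shLuc replicate 3, Hist1h4h was high at 2178.77 TPM (others 1407.76 to 1479.12), Hist1h2be at 118.01 TPM (others 64.00 to 72.81) and the H3 genes together at 10010 TPM (others 6615.40 to 7136.12).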

How the results depend on the processing

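The count of members called was 0 in each comparison in the edgeR fit. It became 1 for shDis3 over shExosc10 with no filter on low counts; without the 4 libraries of the tightest pairs across groups it became 2 for shDis3 over shLuc, 1 for shExosc10 over shLuc and 1 for shDis3 over shExosc10. Hist2h2aa2 turned sign there, to 1.73 in shDis3 over shExosc10 and -2.07 in shExosc10 over shLuc. Leaving out each replicate in turn gave 0 to 0 calls in every comparison, with medians of -0.42 to 0.09 for shDis3 over shLuc, -0.19 to 0.27 for shExosc10 over shLuc and -0.44 to -0.03 for shDis3 over shExosc10. Over 21 alternatives, the median of all members had the other sign in 3 for shDis3 over shLuc, 6 for shExosc10 over shLuc and 0 for shDis3 over shExosc10. The H4 median in shDis3 over shLuc was negative in all of them (-0.78 to -0.10). No alternative left out both shLuc replicates 1 and 3, where summed H4 CPM was 5706 and 6176. It was 2539 and 2017 in shLuc replicates 2 and 4, and 1972 to 4375 in shDis3. The kept sign therefore does not show that the H4 lean holds without those 2 control libraries. Of 102 comparisons of named genes, 37 kept their sign in all 21 alternatives. Deviations from the group means correlated at -0.47 to 0.77 between same-numbered libraries. The same number gave the highest correlation for replicates 1, 2 and 4 in shDis3 over shLuc. In shExosc10 over shLuc it did so for replicate 2 only, and in shDis3 over shExosc10 for replicate 1 only. The numbers were not taken as pairs in the main fit. With the replicate block the medians were -0.13, 0.02 and -0.17 and 0 members were called in each. The order of 13 of 20 leading members within their type differed by CPM per kilobase. The biological coefficient of variation was 60.0% over all genes tested, and expected counts of near-identical members were divided by RSEM, which limits single-gene values. The cause of the changes was not tested.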
